A study of Mus musculus with 24 samples.

Results

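The 9 complement genes described here, C1qa, C1qb, C1qc, C1s1, C4b, C3, Cfb, C3ar1, and C5ar1, were the rows of the deposited count matrix that carry these symbols, 9 of 32285 genes. Their unique molecular identifiers (UMIs, one per captured RNA molecule) were followed over cell types, treatments, and preparations of Panc02 tumors. WT male C57BL/6 mice aged 6 to 7 weeks carried a tumor grown under the skin of the flank from Panc02 cells, a murine pancreatic cancer line. Of the 8 treatments, 4 held PancVAX (PancVAX + Anti-PD-1 + Anti-CTLA-4, PancVAX + Anti-PD-1, PancVAX + Anti-CTLA-4, and PancVAX alone with isotype antibodies) and 4 did not (Anti-PD-1 + Anti-CTLA-4, Anti-PD-1, Anti-CTLA-4, and Isotype Control). PancVAX was a mix of neoantigen peptides, at 50 µg of each peptide, on days 12 and 19. It was given with the emulsion AddaVax and a STING agonist, and PBS took the place of the whole vaccine, so a difference with PancVAX joins peptides and adjuvants. By the labels, Anti-PD-1 was given at 100 µg from day 12, Anti-CTLA-4 at 100 µg on days 15 and 22, and all tumors were taken on day 38.

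Tumors of a treatment were pooled before sequencing, so each treatment is 1 pool, and p-values compare pools and not mice. Every treatment had 2 RNA libraries, 1 from dissociated whole tumor and 1 enriched for immune cells with Percoll density separation. The paper does not say that both drew on the same tumors, and they are taken here as 1 pool. Those preparations were also the 2 sequencing batches, and preparation and batch cannot be told apart. The 16 libraries held 77132398 to 176233225 UMIs, and 57355 of 144994 barcodes (39.6%) passed the study's limits on genes, UMIs, mitochondrial share, and hemoglobin.

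Complement is a chain of plasma proteins that tags cells and debris. C1q, built of the A, B, and C chains, binds a surface and activates the serine protease C1s, which cuts C4 and starts the classical pathway. C3 is the point where the pathways meet, and factor B, the product of Cfb, forms the alternative pathway's C3-cutting enzyme. The small fragments C3a and C5a act on the receptors C3aR1 and C5aR1, which are known from myeloid cells. In tumors, macrophages are a known source of C1q, while fibroblasts and epithelial cells make many of the other components.

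The C1q genes lie side by side on chromosome 4 (GRCm38: C1qb at 136880126 to 136886200, C1qc at 136889801 to 136892936, and C1qa at 136895916 to 136898844). Promoters of 300 bases, 250 before to 50 after the start, were given in RefSeq (GRCm38.p6) for 6 of the 9 genes, and are shown for the 3 that hold the motif AGGAAGT, the kind of letters that ETS factors such as PU.1 are known to bind. Each is printed 5′ to 3′ on the gene's own strand, with capitals for the motif, which lies on the other strand in all 3 and so reads as its reverse complement.
C1qb, chr4:136886151-136886450, minus strand: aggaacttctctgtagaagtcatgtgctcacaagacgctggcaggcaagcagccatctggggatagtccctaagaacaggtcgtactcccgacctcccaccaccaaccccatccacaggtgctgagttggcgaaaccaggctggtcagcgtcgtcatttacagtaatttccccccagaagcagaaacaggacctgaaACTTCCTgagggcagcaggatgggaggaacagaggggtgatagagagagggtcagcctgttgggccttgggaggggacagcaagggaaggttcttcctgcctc
C1qc, chr4:136892865-136893164, minus strand: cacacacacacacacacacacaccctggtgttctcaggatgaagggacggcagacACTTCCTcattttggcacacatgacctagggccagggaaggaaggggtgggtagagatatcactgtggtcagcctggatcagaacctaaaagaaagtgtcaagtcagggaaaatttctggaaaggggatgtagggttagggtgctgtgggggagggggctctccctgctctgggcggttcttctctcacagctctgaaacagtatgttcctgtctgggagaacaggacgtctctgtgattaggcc
C5ar1, chr7:16259289-16259588, minus strand: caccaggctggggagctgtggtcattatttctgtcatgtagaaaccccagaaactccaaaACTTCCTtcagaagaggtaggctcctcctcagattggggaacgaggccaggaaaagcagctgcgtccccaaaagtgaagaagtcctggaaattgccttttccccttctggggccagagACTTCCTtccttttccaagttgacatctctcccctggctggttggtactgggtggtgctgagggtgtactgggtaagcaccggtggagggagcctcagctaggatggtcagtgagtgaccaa
The match began 53 bases before the start in C1qb, 195 bases before it in C1qc, and 190 and 72 bases before it in C5ar1. Of 32851 promoters of this length, 9.35% held the motif on either strand. The promoters of C1s1, C3, and C3ar1 held no match, which says only that these letters are not in those windows.

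Cells were sorted into gates by marker genes, with no complement gene among the markers. A cell entered a gate with UMIs of at least 3 of its markers and at least 2 more than for any other gate. The macrophage gate held 12634 cells, the neutrophil gate 8108, the stromal gate 1003, the tumor gate 3097, and the endothelial gate 317, and the T cell gate (13979 cells) served as a measure of free RNA. Genes that no gate used bore the names out for macrophages (Apoe, 13227 CPM, where CPM is a gene's UMI count scaled to the total of the gate), neutrophils (S100a8, 15758 CPM), and endothelium (Ramp2, 1080 CPM). Col1a1 stood at 2013 CPM in the stromal gate against 7.64 CPM in the tumor gate. Other collagens are stromal markers, and the rule keeps cells rich in them out of the tumor gate, so that contrast was partly set in advance. Of the 1003 stromal cells, 532 led the next gate by only the 2 markers required. The word stroma below stands for this gate, and whether all its cells are stromal was not tested. In the tumor gate, named for keratins, claudins, and other epithelial markers, the ductal genes Cldn18 (0.052 CPM), Tff1 (0.052 CPM), Tff2 (1.19 CPM), and Muc1 (15 CPM) were near 0, Sox9 was at 651 CPM against 595 CPM in the stromal gate, and 54.9% of cells sat at the lowest score allowed. The limits removed most large cells: without their upper bounds the tumor gate held 24175 cells and the stromal gate 5405. Any 2 libraries shared 50 to 284 barcode sequences, at most 2.43% of the smaller one.

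**Figure D1:**
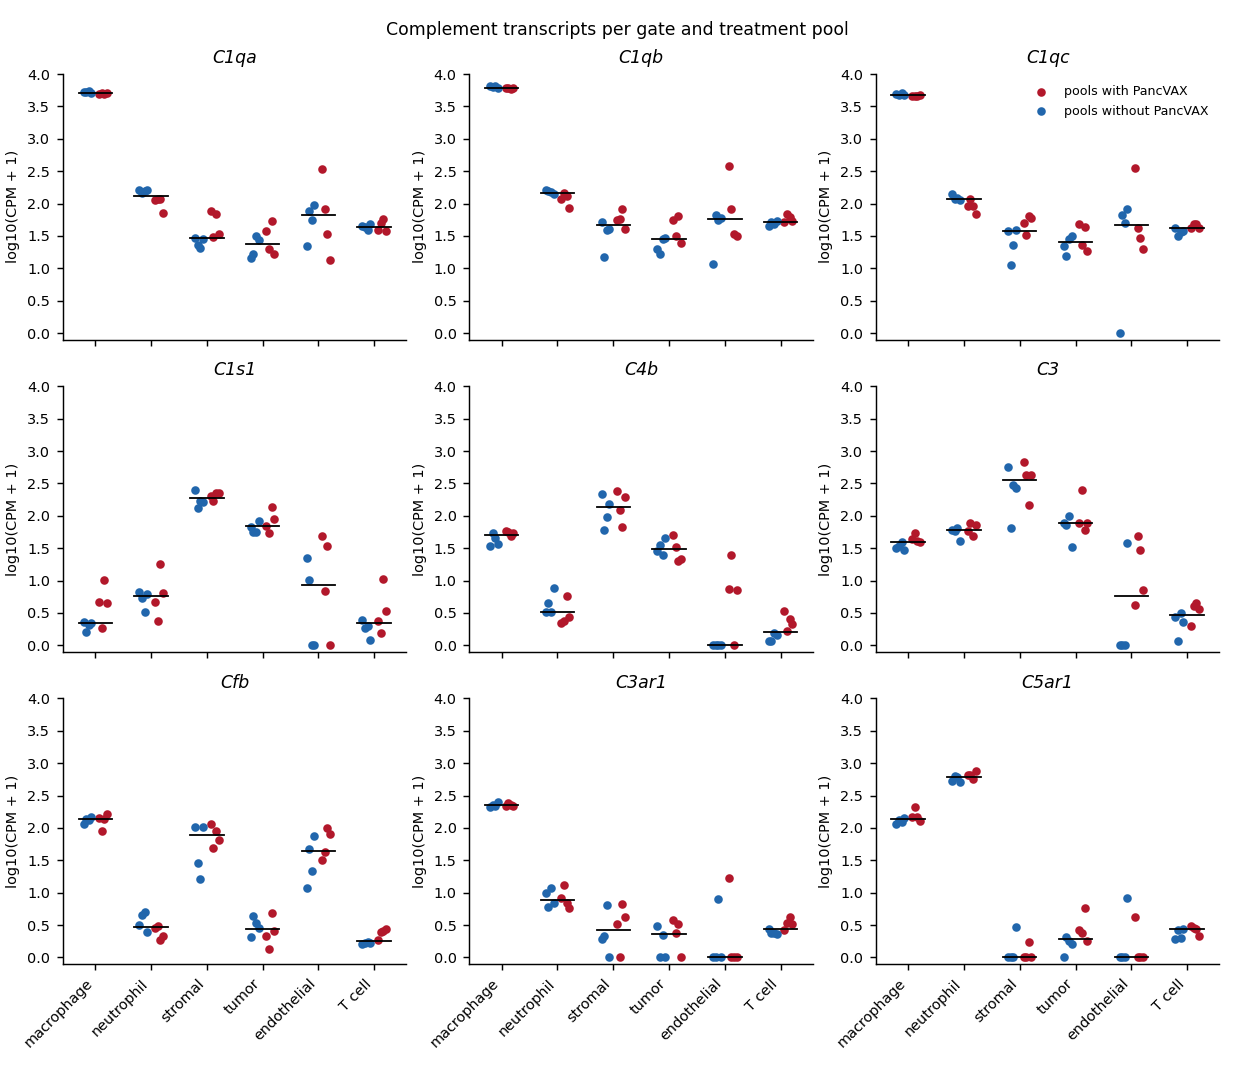
Level of each complement gene, as log10 of CPM + 1, in the 5 gates and the T cell gate. Each point is 1 of 8 treatment pools (red, with PancVAX; blue, without), and bars are medians. C1q and C3ar1 are highest in the macrophage gate, C5ar1 in the neutrophil gate, and C1s1, C4b, and C3 in the stromal gate.

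Transcripts of the C1q chains were found almost wholly in macrophages. C1qa stood at 4852 to 5507 CPM over the 8 pools of the macrophage gate (median, 5093), and at 70.5 to 163 CPM in the neutrophil gate (median, 131). C1qb stood at 5777 to 6514 CPM in the macrophage gate and C1qc at 4561 to 5047 CPM, and in the neutrophil gate they reached at most 159 and 141 CPM. The macrophage and neutrophil ranges did not overlap for any chain. In 1 fit of all 5 gates with pool as a block, the macrophage gate exceeded the neutrophil gate by a log2 of 5.28 (SE 0.26) for C1qa, 5.47 (SE 0.27) for C1qb, and 5.42 (SE 0.27) for C1qc (edgeR with Benjamini-Hochberg adjustment, adjusted p = 2.6e-21, 2.6e-21, and 5.2e-21). Genes were called at an adjusted p below 0.05 with a log2 change above 0.5, and in this comparison 58% of all 11970 genes tested were called, so a call alone says little about a member. In the macrophage gate 93.3% of cells carried UMIs of all 3 chains, and the gate held 93.6% of the C1qa UMIs of cells that passed.

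Of the C1qa UMIs of cells that passed, 4.69% lay in cells of no gate, where 11335 cells without markers of both stroma and tumor averaged 1.28 UMIs of C1qa per cell. What these cells are was not tested. The neutrophil, stromal, and tumor gates had far less. C1qa averaged 25.1 UMIs per cell in the macrophage gate, 0.216 in the neutrophil gate, 0.24 in the stromal gate, 0.181 in the tumor gate, and 0.182 in the T cell gate, which should lack it. The share of cells with a C1qa UMI was 94.5% (95% Clopper-Pearson interval, 94.1% to 94.9%) in the macrophage gate at a median of 4640 UMIs per cell, 13% (12.2% to 13.7%) in the neutrophil gate at 1499, and 11.9% (11.3% to 12.4%) in the T cell gate at 3657. These intervals cover counting error only. With each cell thinned to 1000 UMIs the shares were 90.6%, 9.09%, and 4.33%, so at equal depth the neutrophil gate lay above the T cell gate, while the stromal (4.1%) and tumor (3.28%) gates did not. All 3 chains together were found in 3.59% of stromal, 2.71% of tumor, and 2.15% of neutrophil cells, against 1.72% of T cells. C1q in these 3 gates thus lay near the T cell amount per cell, and whether part of it was made there was not tested. The endothelial gate had 0.511 C1qa UMIs per cell, most of it from 1 pool: PancVAX stood at 337 CPM, of 12.4 to 337 CPM over the 8. That value came from 1 library, with 106 UMIs in Percoll (410 CPM) and 1 UMI in whole tumor (17 CPM). C1qa, C1qb, and C1qc were called higher in the endothelial than in the stromal gate (log2 1.28, 0.96, and 1.09), among 37.8% of all genes called, and without the PancVAX pool the values were 0.52, -0.06, and -0.02 with none called.

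C1s1, the protease that C1q activates (chr6:124530344-124542392), had the opposite distribution. The stromal gate stood at 131 to 250 CPM and the tumor gate at 53.2 to 134 CPM, with overlap between them. The macrophage gate stood at 0.579 to 9.27 CPM, below both in every pool. The stromal gate exceeded the macrophage gate by a log2 of 5.8 (SE 0.23, edgeR adjusted p = 1.4e-24) and the tumor gate by 1.27 (SE 0.18, edgeR adjusted p = 3.2e-07). Per cell, C1s1 averaged 1.21 UMIs in the stromal gate and 0.513 in the tumor gate, against 0.0121 in the macrophage gate, 0.01 in the neutrophil gate, and 0.0116 in the T cell gate. The macrophage and neutrophil amounts are thus at the background, and the call of C1s1 between them (log2 -1.22, SE 0.38, edgeR adjusted p = 0.00421) compares 153 with 81 UMIs. C1s2, a near copy of C1s1 whose reads counting could split, had 0 to 0.647 CPM over the pooled cells of the 5 gates.

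Most C1s1 was in cells that no gate took. Of its UMIs in cells that passed, 59.6% lay in the 15227 cells of no gate. A group of 3892 such cells with at least 2 stromal and 2 tumor markers, formed after the values were seen, held 35.2% of these UMIs at 109 CPM, between the tumor and stromal gates. Of all C1s1 UMIs in the libraries 87.4% were in barcodes above the upper limits, against 81.4% for C3, 78.8% for C4b, 62.5% for Cfb, 54.5% for C1qa, 48% for C3ar1, and 34.2% for C5ar1. Values for C1s1, C3, and C4b therefore describe the smaller cells. Without the upper limits, C1s1 had a median of 100 CPM in the stromal gate, 34.2 in the tumor gate, and 8.24 in the macrophage gate, and the order of these gates was as before.

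**Figure D2:**
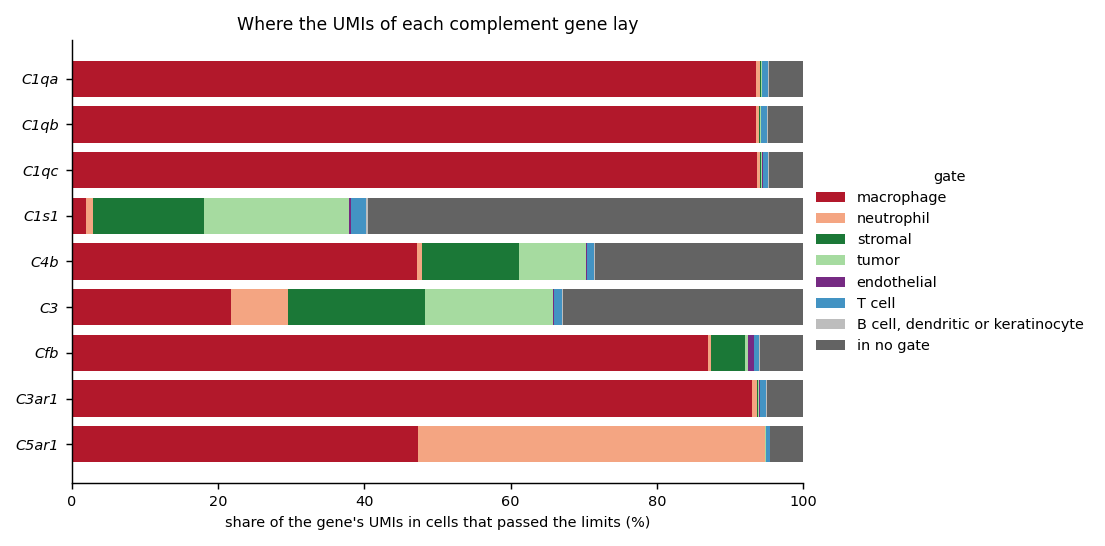
Share of each gene's UMIs, in cells that passed the limits, by gate (percent; 1 bar per gene). C1q, Cfb, and C3ar1 are mostly in the macrophage gate, C5ar1 is divided between macrophages and neutrophils, and C1s1 has 59.6% in cells of no gate.

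C4b encodes C4, the substrate of C1s (chr17:34728139-34743902), and was found in both the stromal and the macrophage gate. It stood at 58.8 to 236 CPM in the stromal gate (median, 137), 33.1 to 56.2 CPM in the macrophage gate (median, 50.3), and 19.3 to 50.1 CPM in the tumor gate. The stromal range lay just above the macrophage range, and the macrophage and tumor ranges overlapped. The log2 difference between the stromal and macrophage gates was 0.99 (SE 0.18, edgeR adjusted p = 8.2e-06), and it was -0.14 without the upper limits on cells, where it was not called. Against the tumor gate the stromal gate was higher by a log2 of 2.06 (SE 0.21, edgeR adjusted p = 1.3e-10). In the macrophage gate 13.1% of cells (12.5% to 13.7%) had a C4b UMI, against 0.308% (0.223% to 0.414%) in the T cell gate. C4a, the near copy of C4b, was at 0.162 CPM or less over the pooled cells of the 5 gates.

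C3, the protein on which the pathways converge (chr17:57203967-57228136), varied widely between pools in the stromal gate. Pools with PancVAX stood there at 673 (PancVAX), 431 (PancVAX + Anti-CTLA-4), 144 (PancVAX + Anti-PD-1), and 419 CPM (PancVAX + Anti-PD-1 + Anti-CTLA-4). Pools without it stood at 266 (Isotype Control), 569 (Anti-CTLA-4), 64.6 (Anti-PD-1), and 300 CPM (Anti-PD-1 + Anti-CTLA-4). The lowest values of both sets were the pools given Anti-PD-1 with no Anti-CTLA-4. C3 stood at 32.3 to 249 CPM in the tumor gate, 40 to 75.7 CPM in the neutrophil gate, 28.2 to 52.8 CPM in the macrophage gate, and 0 to 46.9 CPM in the endothelial gate, with overlap between each neighboring pair.

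The stromal gate exceeded the tumor gate in C3 by a log2 of 1.84 (SE 0.24, edgeR adjusted p = 5e-08) and the macrophage gate by 2.59 (SE 0.24, edgeR adjusted p = 6.7e-13). Neutrophils carried C3 above the background: 8.52% of cells (7.92% to 9.15%) had a UMI, against 0.672% (0.544% to 0.822%) in the T cell gate. The macrophage gate was lower in C3 than the neutrophil gate by a log2 of -0.68 (SE 0.25, edgeR adjusted p = 0.0137). That call was lost without the upper limits on cells (log2 -0.26) and with whole-tumor libraries alone (log2 -0.27).

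Cfb, the alternative pathway's protease (chr17:34856374-34862514), was shared by the macrophage, stromal, and endothelial gates. It stood at 89.8 to 161 CPM in the macrophage gate, 15.1 to 113 CPM in the stromal gate, and 10.7 to 97.6 CPM in the endothelial gate, and neighbors in this order overlapped. In the neutrophil gate it stood at 0.858 to 4.04 CPM and in the tumor gate at 0.35 to 3.9 CPM, below the endothelial gate in every pool. The macrophage gate exceeded the stromal gate (log2 of stromal against macrophage -1.49, SE 0.18, edgeR adjusted p = 1.8e-09), and the stromal gate exceeded the tumor gate by a log2 of 4.96 (SE 0.32, edgeR adjusted p = 3.5e-16). In the tumor gate Cfb had 39 UMIs and entered this fit only through the gates where it is high, so the size of that difference is not read. No difference between endothelium and stroma was called (log2 -0.49, 95% interval -1.14 to 0.16), while without the upper limits on cells the value turned to 0.62 (SE 0.25, edgeR adjusted p = 0.033) and was called. In the endothelial gate 16.4% of cells (12.5% to 20.9%) had a Cfb UMI, against 0.444% (0.34% to 0.568%) in the T cell gate. These 73 UMIs came from 317 cells.

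The receptors were myeloid. C3ar1, the receptor for C3a (chr6:122847140-122856157), stood at 208 to 248 CPM in the macrophage gate and at 4.74 to 12.1 CPM in the neutrophil gate, a log2 difference of 4.78 (SE 0.17, edgeR adjusted p = 1.4e-25). The 3 remaining gates had medians of 0 to 1.7 CPM, like the T cell gate (1.72 CPM). C5ar1, the receptor for C5a (chr7:16246743-16259540), stood at 506 to 756 CPM in the neutrophil gate and at 112 to 210 CPM in the macrophage gate. The neutrophil gate was thus higher in every pool, and the log2 of macrophage against neutrophil was -2.19 (SE 0.12, edgeR adjusted p = 1.4e-19). Of C5ar1 UMIs in cells that passed, 47.4% were in the macrophage gate and 47.3% in the neutrophil gate, and 52.3% of neutrophil-gate cells (51.2% to 53.4%) had one at a median depth of 1499 UMIs. Outside these gates C5ar1 had 2 UMIs in the stromal, 34 in the tumor, and 2 in the endothelial gate. The call between the stromal and tumor gates (log2 -2.28, SE 0.88, edgeR adjusted p = 0.0455) rests on these, was lost when any of 6 pools was left out, and was 0.08 without the upper limits on cells.

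Each gate comparison was read against its background. All 9 genes were called between the macrophage and neutrophil gates, 6 higher in macrophages (58% of all genes called), and all 9 between the stromal and macrophage gates, 3 higher in stroma (62.2%). Between the stromal and tumor gates 5 of 9 were called (18.8%), of which C5ar1 rests on the few UMIs given above, and between the endothelial and stromal gates 6 of 9 (37.8%). All 9 passed the filter on low counts in this fit, which a gene can do through the gates where it is high. Members ranged in log2 from -2.19 (C5ar1) to 5.88 (Cfb) for macrophages against neutrophils, from -9.02 (C5ar1) to 5.8 (C1s1) for stroma against macrophages, from -2.28 (C5ar1) to 4.96 (Cfb) for stroma against tumor, and from -4.86 (C4b) to 1.84 (C5ar1, not called) for endothelium against stroma. Most of these ends rest on a gate where the gene is near 0. UMIs were 2 for C5ar1 in stroma and in endothelium, 7 for C4b in endothelium, and 29 and 39 for Cfb in neutrophils and tumor. Macrophage C1s1 is at the background, so the size of such ends is not read.

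The macrophage gate was not uniform in complement. Cells with a UMI of Ccr2 or Ly6c2, genes known from monocytes, made up 16.5% of the gate, and this split was made after the values were seen and has no test. In these 2082 cells C1qa stood at 2644 to 3541 CPM over the 8 pools, and in the other 10552 cells at 5265 to 5917 CPM. C1qb, C1qc, and C4b were also lower in the Ccr2 or Ly6c2 cells in 8 of 8 pools, by a median of 1.7-fold, 2.02-fold, and 2.46-fold. C3 went the other way, at 61.1 to 108 CPM in the Ccr2 or Ly6c2 cells and 16.6 to 43 CPM in the others, higher in 8 of 8 pools. Those ranges did not overlap for any of these 5 genes. How many of all genes separate or shift in this way was not counted, so the pattern is not read as particular to complement. C5ar1 was higher in the Ccr2 or Ly6c2 cells in 8 of 8 pools (164 to 234 CPM against 94.3 to 202), C3ar1 lower in 8 of 8 (176 to 216 CPM against 212 to 257), and Cfb lower in 6 of 8. Cells with a Ccr2 or Ly6c2 UMI were deeper, at a median of 5425 UMIs against 4386, and the part of depth in these values was not tested.

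**Figure D3:**
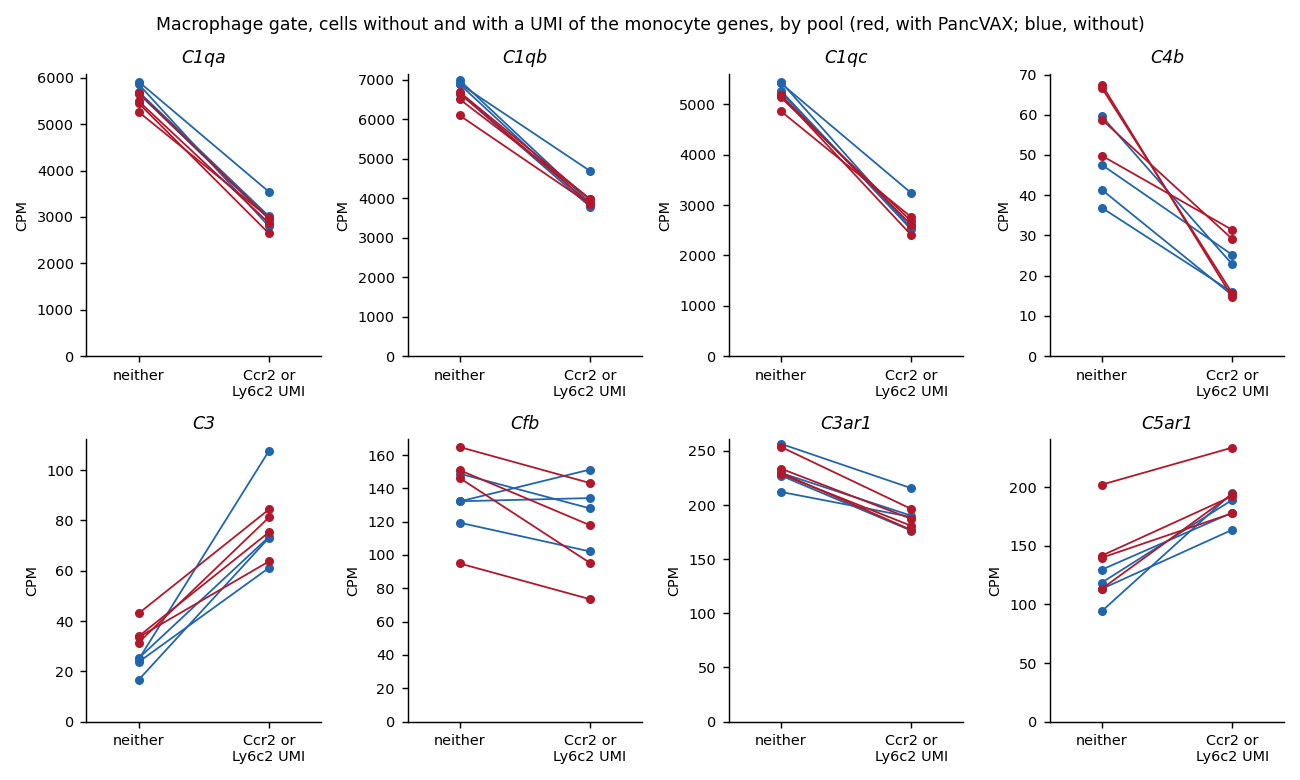
CPM of 8 complement genes in macrophage-gate cells without (left) and with (right) a UMI of Ccr2 or Ly6c2. Each line joins the values of 1 pool (red, with PancVAX; blue, without). C1q and C4b are lower and C3 and C5ar1 higher in the Ccr2 or Ly6c2 cells of all 8 pools.

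None of the 9 genes was called with PancVAX, in any gate. The comparison set 4 pools with PancVAX against 4 without, with the antibodies as covariates, and 9, 6, 7, 6, and 4 of the 9 genes passed the filter in the macrophage, neutrophil, stromal, tumor, and endothelial gates. Of the 32 tests 14 had an unadjusted p below 0.05 (edgeR) and 0 were called. By gate these were 7 of 9 members in macrophages, where 14.7% of all genes had such a p, 3 of 6 in neutrophils (6.6%), 3 of 7 in stroma (10.5%), 1 of 6 in tumor (7.98%), and 0 of 4 in endothelium (7.17%). Of all genes, 0.131% were called in the macrophage gate, 0.163% in the neutrophil gate, 0% in the stromal gate, 0.0193% in the tumor gate, and 0.348% in the endothelial gate.

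In the macrophage gate the C1q values were tightly bounded. C1qa stood at 4852 (PancVAX), 5037 (PancVAX + Anti-CTLA-4), 4944 (PancVAX + Anti-PD-1), and 5040 CPM (PancVAX + Anti-PD-1 + Anti-CTLA-4) with PancVAX, and at 5146 (Isotype Control), 5314 (Anti-CTLA-4), 5197 (Anti-PD-1), and 5507 CPM (Anti-PD-1 + Anti-CTLA-4) without it. All 4 pools with PancVAX lay below all 4 without, though the fitted log2 difference was only -0.14 (SE 0.05, 95% interval -0.23 to -0.05, edgeR adjusted p = 0.203). C1qa also separated in neutrophils (lower with PancVAX) and in stroma (higher), and how many of all genes separate so was not counted. C1qb gave -0.13 (SE 0.05, edgeR adjusted p = 0.247) and C1qc -0.12 (SE 0.05, edgeR adjusted p = 0.26), with overlapping groups. C1qa gave -0.13 in whole-tumor libraries alone and -0.12 in Percoll libraries alone. C3ar1 gave -0.03 (95% interval -0.15 to 0.09) and Cfb -0.04 (-0.29 to 0.2), so both intervals lay within a log2 of 0.5 of 0.

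C3, C4b, and C5ar1 had positive values in macrophages with PancVAX without passing the test, each with overlapping groups. C3 was at 42.1, 52.8, 39.7, and 38.8 CPM with PancVAX and at 28.2, 30.4, 33.5, and 39 CPM without, with a log2 of 0.36 (SE 0.11, edgeR adjusted p = 0.187). The C3 groups overlapped by 1 pool, Anti-PD-1 + Anti-CTLA-4. With whole-tumor libraries alone the log2 was 0.67 (SE 0.1, edgeR adjusted p = 0.022) and C3 was called, among 0.266% of all genes. With Percoll libraries alone it was -0.04 (SE 0.16, edgeR adjusted p = 0.97), and the difference between preparations was not tested. C4b gave 0.32 (SE 0.12, edgeR adjusted p = 0.246), at 47.2 to 56.2 CPM with PancVAX and 33.1 to 53.3 CPM without, and C5ar1 0.27 (SE 0.12, edgeR adjusted p = 0.31). The C5ar1 value was highest in PancVAX + Anti-CTLA-4 at 210 CPM, against 112 to 149 CPM in the other 7 pools, and the pool given all 3 agents (128 CPM) lay below Isotype Control (139.8 CPM).

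C1s1 had the largest fitted value in macrophages, a log2 of 1.73 (SE 0.48, edgeR adjusted p = 0.16), at the level of free RNA. It was 1.05 with whole-tumor and 2.26 with Percoll libraries alone, neither called. PancVAX + Anti-PD-1 stood at 9.27 CPM (63 of 153 UMIs, 56 of them in its Percoll library), PancVAX at 3.6, PancVAX + Anti-PD-1 + Anti-CTLA-4 at 3.43, and PancVAX + Anti-CTLA-4 at 0.859 CPM, and the pools without PancVAX at 0.579 to 1.31 CPM. T cells, which should lack C1s1, showed the same pool on top, at 9.62 CPM against 0.22 to 2.36 CPM in the other 7. That pool also held the most tumor-gate cells (813) and stromal-gate cells (283) of the 8, and the part of these cells in the value was not tested.

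The remaining gates gave no call either. In the neutrophil gate C1qa stood at 113, 117, 115, and 70.5 CPM with PancVAX and at 163, 161, 145, and 157 CPM without, with no overlap (log2 -0.64, SE 0.13, edgeR adjusted p = 0.106), at an amount per cell near that of T cells. Without PancVAX + Anti-PD-1 it was called (-0.72, edgeR adjusted p = 0.047). The share of all genes called in that fit is not given here. Over all alternative fits of this gate 0 to 337 genes were called, so the call is not read. C5ar1 there gave 0.19 (SE 0.12, 95% interval -0.04 to 0.42), and without the upper limits on cells 0.69 (SE 0.14, edgeR adjusted p = 0.027), where it was called among 3.1% of all genes. The other 4 members tested there lay between -0.46 (C1qc) and 0.12 (C3). In the stromal gate C3 gave 0.63 (SE 0.32, edgeR adjusted p = 0.515), and without PancVAX + Anti-CTLA-4 1.05 (SE 0.22, edgeR adjusted p = 0.048), where it was called among 0.663% of all genes. C1s1 gave 0.19 (SE 0.2), C4b 0.32 (SE 0.3), and Cfb 0.5 (SE 0.39). The C1q genes had larger values there, 0.98 (SE 0.27) for C1qa with no overlap between the groups, 0.97 (SE 0.36) for C1qc, and 0.76 (SE 0.35) for C1qb, at amounts per cell near those of T cells. With whole-tumor libraries alone these were 0.9, 0.18, and 0.32, and with Percoll libraries alone 0.87, 1.11, and 0.84. In the tumor gate C1qb gave 0.74 (SE 0.24, edgeR adjusted p = 0.565), C1qa 0.29, C1qc 0.25, C1s1 0.28, and C4b -0.17. For 3 of the 6 members tested there the direction turned between preparations, with C1qa at -0.55, C1qc at -0.52, and C4b at 0.1 in whole-tumor libraries alone and at 0.37, 0.5, and -0.4 in Percoll libraries alone. C1qb (0.17 and 0.77), C1s1 (0.31 and 0.17), and C3 (0.79 and 0.48) were positive in both. In the endothelial gate C1qb gave 1.07 (SE 0.62), C1qc 0.75 (SE 0.67), C1qa 0.52 (SE 0.56), and Cfb 0.61 (SE 0.53). C3 in the tumor gate gave 0.64 (SE 0.31, edgeR adjusted p = 0.652), with PancVAX + Anti-CTLA-4 at 249 CPM and the other 7 pools at 32.3 to 96.5 CPM. The test of whether the PancVAX effect differs from that in macrophages called 0 of 18 member tests for the neutrophil and stromal gates (2 at an unadjusted p below 0.05), with 0% of 12275 genes called in each. Of the 18, 5 are of genes that passed the filter only through another gate (C1s1, C4b, and Cfb in neutrophils, C3ar1 and C5ar1 in stroma) and are not read. The others ran from -0.51 (C1qa) to 0.05 (C3ar1) for neutrophils and from -1.7 (C1s1) to 1.06 (C1qa) for stroma, and those ends for stroma rest on C1s1 in macrophages at the level of free RNA and on stromal C1qa near the T cell amount.

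**Figure D4:**
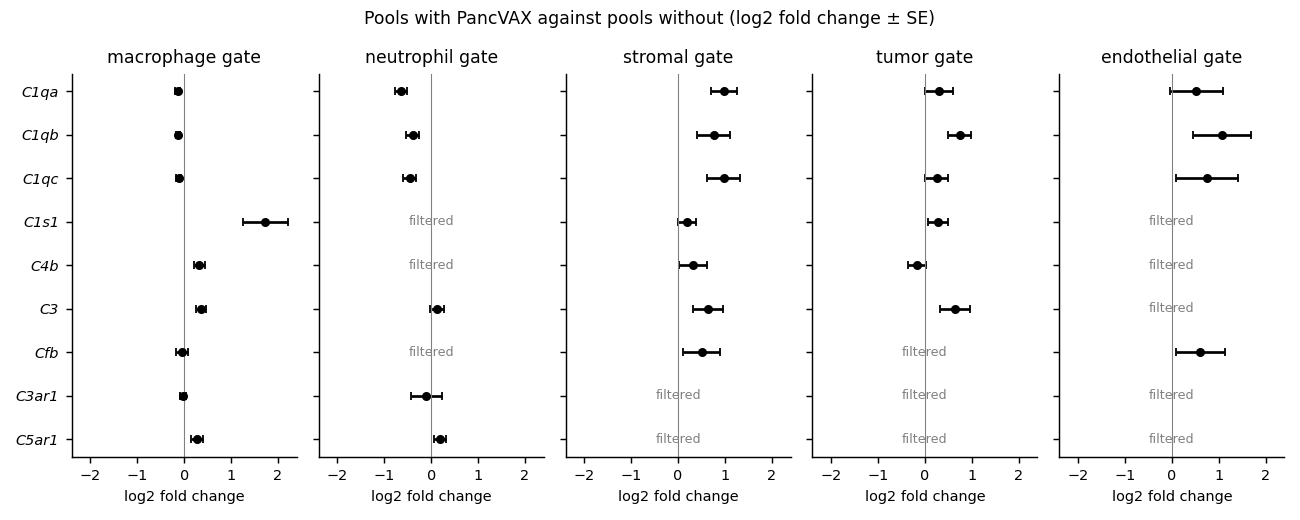
Fitted log2 change of each gene between 4 pools with PancVAX and 4 without, in 5 gates. Points are edgeR estimates and bars are SE, and genes that did not pass the filter on low counts are marked filtered. None of the 32 estimates was called.

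Over all barcodes of the whole-tumor libraries, without gates or cell limits, C3 came nearest to a call. It stood at 24.2, 73.7, 32.3, and 47.5 CPM with PancVAX and at 19.4, 31.1, 14.6, and 38.9 CPM without, with overlap (log2 0.66, SE 0.16, edgeR adjusted p = 0.112). DESeq2 called it at a log2 of 0.66 (adjusted p = 0.00098). The share of all genes that DESeq2 called is not given here. Over all alternative fits 2 to 305 genes were called, so this call is not read. In such sums, more cells of a type and more RNA per cell cannot be told apart. The 8 other members gave log2 values from -0.29 (C1qa, SE 0.15) to 0.37 (C1s1, SE 0.26), 0 of 9 were called, and 0.256% of all 17199 genes were.

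The antibodies gave no call among 32 tests each. For Anti-PD-1, 7 tests had an unadjusted p below 0.05 (edgeR), 3 of 7 in stroma (7.3% of all genes), 1 of 6 in tumor (7%), 3 of 4 in endothelium (8.53%), and 0 in macrophages (6.23%) and neutrophils (5.76%). By the call, 0%, 0.117%, 0.649%, 0.029%, and 0.19% of all genes were called in the macrophage, neutrophil, stromal, tumor, and endothelial gates. In the stromal gate all 7 members tested had negative values with Anti-PD-1. Of all genes called there, 53 were lower and 0 higher, so that direction is not particular to the members. The median log2 over all genes tested was 0. With Percoll libraries alone C1s1 (0.24) and Cfb (0.12) were positive. C3 stood at 64.6, 300, 144, and 419 CPM with it and at 266, 569, 673, and 431 CPM without, with overlap (log2 -1.36, SE 0.32, edgeR adjusted p = 0.111). Cfb gave -1.08 (SE 0.39, edgeR adjusted p = 0.444) and C4b -0.98 (SE 0.3, edgeR adjusted p = 0.312), and the other 4 lay between -0.31 (C1qb) and -0.14 (C1s1). Without the PancVAX + Anti-CTLA-4 pool C3, Cfb, and C4b were called, at -1.79, -1.48, and -1.39, in a fit that called 1.59% of all genes. Without the pool given all 3 agents C4b was called (-1.35), in a fit whose share of all genes called is not given here. With whole-tumor libraries alone C3 (-1.93) and Cfb (-2.15) were called among 1.8% of all genes, with Percoll libraries alone the values were -0.6 and 0.12, and the difference between preparations was not tested. Without the upper limits on cells, 0% of all genes were called. In the tumor gate C4b gave -0.68 (SE 0.19, edgeR adjusted p = 0.527), at -0.84 with whole-tumor and -0.31 with Percoll libraries alone, and the other 5 members lay between -0.32 (C3) and 0.39 (C1qa). In the endothelial gate C1qa gave -1.67 (SE 0.56), C1qc -1.47 (SE 0.67), C1qb -1.45 (SE 0.61), and Cfb 0.67 (SE 0.52), where the high PancVAX pool is among those without Anti-PD-1. Without Isotype Control C1qa was called (-2.23, edgeR adjusted p = 0.05), in a fit whose share of all genes called is not given here. Values ran from -0.17 (C5ar1) to 0.89 (C1s1, 0 with whole-tumor and 1.62 with Percoll libraries alone) in macrophages and from -0.39 (C3ar1) to 0.13 (C5ar1) in neutrophils.

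For Anti-CTLA-4, 11 tests had an unadjusted p below 0.05 (edgeR), among them 2 of 7 in stroma (3.49% of all genes), 1 of 6 in neutrophils (4.17%), and 0 of 9 in macrophages (4.63%), and 0%, 0%, 0%, 0.0193%, and 0.126% of all genes were called in the same order of gates. C3 had positive values in the stromal gate (log2 1.04, SE 0.33, edgeR adjusted p = 1), the tumor gate (1.04, SE 0.31, edgeR adjusted p = 0.32), and the neutrophil gate (0.47, SE 0.15, edgeR adjusted p = 0.983). Without PancVAX + Anti-CTLA-4 the stromal value was 1.51 (SE 0.22, edgeR adjusted p = 0.038) and was called among 0.0603% of all genes. The C1q genes had no single direction in the tumor gate, where they lie near the T cell amount per cell. With both preparations C1qa gave -0.83 (SE 0.29, edgeR adjusted p = 0.392), C1qb -0.7 (SE 0.24), and C1qc -0.68 (SE 0.25), and with C4b (-0.42, SE 0.19) and C3 these made 5 of 6 members with an unadjusted p below 0.05 (edgeR), against 9.43% of all genes. With whole-tumor libraries alone C1qa, C1qb, and C1qc were positive (0.7, 0.33, and 0.44) and with Percoll libraries alone negative (-1.83, -1.41, and -1.42), none called, and the difference between preparations was not tested. C1s1 gave -0.4 (SE 0.21). In the endothelial gate C1qc gave -1.99 (SE 0.67), C1qa -1.49 (SE 0.55), and C1qb -1.33 (SE 0.6), with Cfb at -0.69 (SE 0.52), which made 3 of 4 members with an unadjusted p below 0.05 (edgeR) against 5.12% of all genes, and the high PancVAX pool is among those without Anti-CTLA-4. In the stromal gate C1qa gave -0.68 (SE 0.27, edgeR adjusted p = 1), and the other 5 members besides C3 lay between -0.47 (Cfb) and 0.52 (C4b). In neutrophils the 5 besides C3 lay between -0.07 (C1qa) and 0.64 (C3ar1), and the C1q genes were negative with whole-tumor libraries alone (-0.5 to -0.24) and positive with Percoll libraries alone (0.4 to 0.54). In macrophages the C1q genes gave 0.07 each (SE 0.05), C3 0.19 (SE 0.11), and C1s1 -0.93 (SE 0.47), which was 0.2 with whole-tumor and -1.79 with Percoll libraries alone. The other 4 lay between -0.17 (Cfb) and 0 (C5ar1).

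Single treatments were also compared in macrophages, in a fit of all 16 libraries with preparation as a covariate. PancVAX against Isotype Control called 0 of 9 members (0.205% of all genes), while all 3 agents together, set against PancVAX, called 0 of 9 (0.66%). These comparisons share the PancVAX libraries. The 2 libraries of a treatment are taken as 1 pool of tumors, so the spread between them does not measure that between mice. C4b came nearest in the first, at 56.2 CPM in the PancVAX pool and 35.9 in Isotype Control (log2 0.74, SE 0.18, edgeR adjusted p = 0.156), and was at 0.01 (SE 0.17) in the second. In a fit of only the 4 libraries compared it was called (edgeR adjusted p = 0.01). With preparation and treatment both fitted, 4 libraries leave little to measure spread. The share of all genes called in that fit is not given here. Over all alternatives of this comparison 1 to 92 genes were called, so the call is not read. C3 gave 0.54 (SE 0.23) and -0.06 (SE 0.22), and the C1q genes lay between -0.1 and 0.09 in both. The other 4 members lay between -0.22 (C3ar1) and 1.49 (C1s1) in the first and between -0.17 (C5ar1) and 0.21 (Cfb) in the second.

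Some of the genes differed by preparation. Percoll and whole-tumor libraries of the same pool were compared with pool as a block, and 4 of 28 member tests were called. Of all genes, 4.37% were called in the macrophage gate, 11.2% in the neutrophil gate, 0.278% in the stromal gate, 1.62% in the tumor gate, and 0.104% in the endothelial gate, where no member passed the filter. In macrophages C4b was lower in the Percoll library of 8 of 8 pools, at 21.4 to 44.2 CPM against 38.7 to 68.1 CPM (log2 -0.63, SE 0.09, edgeR adjusted p = 3.9e-05). The lectin Fcna, which starts another branch of complement, fell with it (log2 -1.14, SE 0.13, edgeR adjusted p = 5.4e-06). Of the 4 monocyte genes, 2 were called higher, Ly6c2 (0.67, SE 0.1) and Chil3 (0.56, SE 0.11). Only 3 of the 4 had positive values, while all 4 had an unadjusted p below 0.05 (edgeR), against 32.9% of all genes. The monocyte list thus had no single direction. Both monocyte calls were lost without the upper limits on cells (0.29 and 0.3) and with no block (0.65 and 0.54), and that of Chil3 without Isotype Control (0.47) or without the pool given all 3 agents (0.45). Their part in the C4b value was not tested.

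In neutrophils C5ar1 was higher in the Percoll library of 8 of 8 pools, at 598 to 908 CPM against 367 to 549 CPM with no overlap (log2 0.65, SE 0.09, edgeR adjusted p = 1.1e-05). C1qb was lower in the neutrophil gate of 7 of 8 Percoll libraries (log2 -0.69, SE 0.14, edgeR adjusted p = 0.00107), and C1qa in 6 of 8 (log2 -0.61, SE 0.18, edgeR adjusted p = 0.021). C1qc was also lower in 7 of 8 (log2 -0.49, SE 0.15, edgeR adjusted p = 0.0297), just under the fold limit. It was called with DESeq2 (-0.54), with RLE scaling (-0.5), with the altered macrophage gate (-0.58), and without Anti-CTLA-4 (-0.51), Anti-PD-1 + Anti-CTLA-4 (-0.65), PancVAX + Anti-CTLA-4 (-0.58), or PancVAX + Anti-PD-1 (-0.52). All 3 chains lie near the T cell amount per cell. C1qa was no longer called without Isotype Control (-0.43), without Anti-PD-1 (-0.52), without the upper limits on cells (-0.53), or with no block (-0.6). In macrophages C1qb (0.21, SE 0.04, edgeR adjusted p = 0.002) and C1qc (0.2, SE 0.04, edgeR adjusted p = 0.00336) were under the fold limit, as were C3 in neutrophils (0.45, SE 0.12, edgeR adjusted p = 0.0114) and C1s1 in the tumor gate (0.4, SE 0.12, edgeR adjusted p = 0.0497). The remaining members lay between -0.12 (C3) and 0.71 (C1s1) in macrophages, at 0.4 (C3ar1) in neutrophils, between -0.39 (C4b) and 0.28 (C1qc) in stroma, and between -0.32 (C4b) and 0.08 (C1qa and C1qb) in tumor. Without the upper limits on cells 4 members were called lower with Percoll in stroma, C1qa and C1qb (-1 each), C1qc (-0.99), and C4b (-0.62), among 3.01% of all genes, and 3 in tumor, C1qb (-0.65), C1qa (-0.57), and C1qc (-0.53), among 4.93%. C3 in neutrophils was called without Isotype Control (0.51), and C1s1 in tumor with the looser gate (0.51) and without the pool given all 3 agents (0.52).

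**Figure D5:**
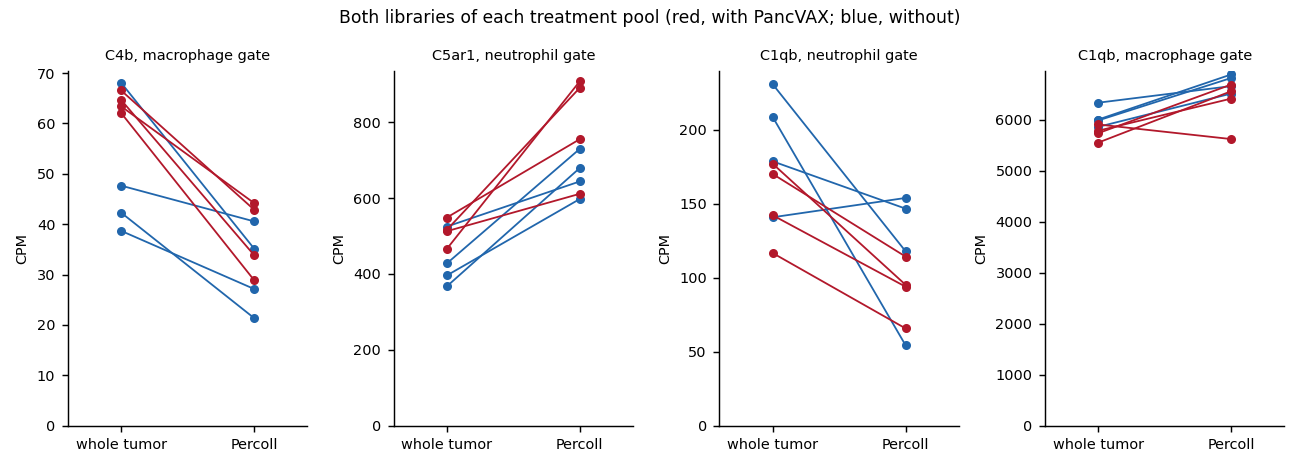
CPM in the whole-tumor and the Percoll library of each pool for C4b in macrophages, C5ar1 and C1qb in neutrophils, and C1qb in macrophages. Each line is 1 of 8 pools (red, with PancVAX; blue, without). C4b is lower and C5ar1 higher with Percoll in all 8 pools.

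Of the other 41 complement genes, 21 were tested between the stromal and macrophage gates, where 10 were called higher in stroma and 8 lower, beside 62.2% of all genes called (median log2 0.52, against 0 over all genes). The largest changes were Serping1, the C1 inhibitor (log2 9.71, SE 0.3), the integrin chains Itgam (-9.23, SE 0.28) and Itgax (-7.15, SE 0.29) of complement receptors, and Vtn (7.16, SE 0.47), which binds the terminal complex. Between macrophages and neutrophils 9 of 21 were called higher and 6 lower (58% of all genes called), led by the terminal component C6 (5.76, SE 0.2), Fcna (5.28, SE 0.26), Cd59a (3.78, SE 0.83), and Cd93 (2.56, SE 0.16). Stroma exceeded the tumor gate in 9 of 21 and was lower in 1 (18.8% of all genes called), with Serping1 (7.94, SE 0.3), Vtn (7.55, SE 0.6), C7 (6.83, SE 0.71), and Colec12 (5.81, SE 0.58) at the top. Endothelium against stroma gave 9 higher and 8 lower of 21 (37.8% of all genes called), led by Cd93 (8.52, SE 0.28), C7 (-6.86, SE 1.62), Vtn (-4.06, SE 0.82), and C1ra (-3.62, SE 0.33), where all genes had a median of -0.14. All of these were called by edgeR with Benjamini-Hochberg adjustment. As for the members, a gene can enter this fit through the gates where it is high. In the treatment fits of single gates, no receptor gene of the list passed the filter in stroma. No terminal gene passed it in neutrophils, tumor, or endothelium, and no initiation gene in endothelium. The sizes given here are therefore not read.

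Treatments gave few calls among the 41. Clu, the regulator clusterin, was called higher with PancVAX in macrophages (log2 2.17, SE 0.29, edgeR adjusted p = 0.0329), 1 of 17 tested beside 0.131% of all genes. Its level was not set against the T cell gate, so the part of free RNA was not tested. The call was lost in 10 of 18 alternatives, among them leaving out any pool but PancVAX or PancVAX + Anti-PD-1 + Anti-CTLA-4 and either preparation alone, with values from 0.79 (no upper limits on cells) to 2.41. Serping1 was called lower with Anti-PD-1 in stroma (-1.56, SE 0.24, edgeR adjusted p = 0.0168), 1 of 12 tested beside 0.649% of all genes. That call was lost in 9 of 18 alternatives, among them leaving out Anti-CTLA-4, Anti-PD-1, Anti-PD-1 + Anti-CTLA-4, PancVAX, or PancVAX + Anti-PD-1, with values from -2.2 (whole-tumor libraries alone) to -0.5 (Percoll libraries alone). No other complement gene was called for PancVAX, Anti-PD-1, or Anti-CTLA-4 in the 5 gates or over all barcodes.

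Genes whose levels ran most like each member were found over the 40 pool and gate sums, among 8563 genes with a mean of at least 10 CPM. The sums share pools, libraries, and gate depth, so Pearson r is a description. C1qa ran with C1qb (0.989), Apoe (0.978), and Ms4a7 (0.974), C1qb with C1qa, Ly86 (0.984), and C1qc (0.981), and C1qc with Ly86 (0.982), C1qb, and Ms4a7 (0.97), where Ms4a7 was itself a macrophage marker. C3ar1 ran with C1qb (0.951), Clec4a3 (0.95), and Tifab (0.944), and C5ar1 with Fpr2 (0.985), Sirpb1b (0.984), and Pilrb1 (0.98). C1s1 ran with Brinp3 (0.96), Col4a5 (0.946), and Gpx8 (0.93), C4b with Htra3 (0.887), Tnfsf13 (0.879), and Vcam1 (0.875), and Cfb with Gas6 (0.919), Emilin1 (0.908), and Rrbp1 (0.901). C3 had the weakest partners, with Gm17056 (0.853), Notch2 (0.833), and S100pbp (0.825).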

How the data were processed

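Single-cell suspensions from pooled tumors were sequenced as 10x 5′ libraries, and the authors aligned and counted reads with Cell Ranger 4.0.0 (build mm10 in the submitters' processing notes). The deposited values are raw UMI counts per gene and barcode. The 8 T cell receptor samples were not used here. Cells were kept at 200 to 3000 genes, 1000 to 10000 UMIs, under 10% mitochondrial UMIs, and no hemoglobin UMI, as the study's methods state. Gates used 9 macrophage, 9 neutrophil, 9 stromal, 12 tumor, and 10 endothelial markers. No doublet caller was run, and 4489 cells with markers of several gates were left out.

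UMIs were summed by pool (both preparations) and gate, with at least 10 cells a sum, then fitted in R 4.3.3 with edgeR 4.0.16 (quasi-likelihood, TMM factors, filterByExpr). Two-sided p-values were adjusted over every gene tested (Benjamini-Hochberg). Libraries were the unit for preparation, paired by treatment, and for single treatments. CPM relate a gene to all UMIs of the summed gate. Intervals of a log2 change were computed from its SE with a normal quantile, which makes them too narrow for so few pools. The code was tested on simulated data. The 9 genes, the 41 other complement genes, and the interferon and monocyte lists were chosen with earlier results of these data known. The rule for named genes took the members in every comparison, by value or by range, up to 4 called of the other complement genes by size, and up to 3 called of each list. DESeq2 1.42.0, RLE scaling, no filter, no upper cell limits, looser and stricter gates, a macrophage gate without Mrc1, Trem2, and Ms4a7, each preparation alone, fits with and without the block, and leaving out each pool were the alternatives.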

Additional observations from a re-analysis of the deposited data

Results flagged for a closer look

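A gap test asked whether 1 of the 4 pools with PancVAX, or of the 4 without, stood apart from the others, in 62 sets of 4 pools with at least 100 UMIs of a gene in a gate. It marked 6 sets, and chance marks about 1 in 20. C3 in the tumor gate of PancVAX + Anti-CTLA-4 was 249 CPM (711 UMIs), against 58.2 to 77.6 CPM in the other pools with PancVAX. C1qb (378 CPM, 120 UMIs, against at most 82.2) and C1qc (350 CPM, 111 UMIs, against at most 41.1) stood apart in the endothelial gate of PancVAX, whose Percoll library held 82 of the 317 endothelial cells. C1qa in the neutrophil gate was 70.5 CPM in PancVAX + Anti-PD-1 + Anti-CTLA-4, against 113 to 117. In the macrophage gate C1qb was 5777 CPM in PancVAX + Anti-PD-1, against 6046 to 6063, and C1qc was 4738 CPM in PancVAX + Anti-PD-1 + Anti-CTLA-4, against 4561 to 4589.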

How the results depend on the processing

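The 33 calls of a member in the report gave 557 values under alternatives, of which 523 kept the direction and the call, 30 kept the direction and lost the call, and 4 turned. The turned values were C4b of stroma against macrophages (-0.14) and C5ar1 of stroma against tumor (0.08) without the upper limits on cells, and C1qb (-0.06) and C1qc (-0.02) of endothelium against stroma without the PancVAX pool. Of 268 counts of members called, 54 changed, 29 of them by no more than 1.5 times and 25 by more, and those 25 follow. With no filter on low counts, 1 member was called with PancVAX in each of the macrophage (C1s1, 1.19% of all genes called), neutrophil (C1qa, 0.434%), and tumor (C1qb, 0.537%) gates, 3 in stroma (1.1%), 3 in the difference between the stromal and macrophage gates (1.09%), 5 with Anti-PD-1 (0.26% to 1.62% by gate), 6 with Anti-CTLA-4 (0.0955% to 1.29%), and 1 (C4b, 0.488%) for PancVAX against Isotype Control. Without the upper limits, 1 (C5ar1, log2 0.69) was called with PancVAX in neutrophils (3.1% of all genes called). There were 10 between preparations (0.433% to 7.15% by gate) and 1 (C3, 0.295%) for PancVAX against Isotype Control. Between stroma and tumor 8 were called, where 1117 to 4643 genes were called over the alternatives, so that count says little about the members. With whole-tumor libraries alone the counts were 1 (C3, PancVAX, macrophages, 0.266% of all genes called) and 2 (Anti-PD-1, 0% to 1.8% by gate). For endothelium against stroma the count was 3 with either preparation alone, where 2129 to 7449 genes were called over the alternatives. DESeq2 called 1 (C3) over all barcodes, and the 4 libraries of PancVAX and Isotype Control alone called 1 (C4b). Leaving out each pool gave 0 to 1 with PancVAX in neutrophils (C1qa without PancVAX + Anti-PD-1) and in stroma (C3 without PancVAX + Anti-CTLA-4), 3 to 6 for endothelium against stroma (C1qb from -0.06 to 1.33, C1qc from -0.02 to 1.46), 0 to 3 with Anti-PD-1, and 0 to 1 with Anti-CTLA-4. The cause was not tested. With no replicate block 3 members were called between preparations, against 4. Percoll libraries alone could not be fitted for PancVAX in endothelium.

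Counts over all genes moved more. Over the alternatives, 0 to 242 genes were called with PancVAX in macrophages (15 in the report's fit), 0 to 337 in neutrophils (14), 0 to 190 in stroma (0), 0 to 96 in tumor (2), 0 to 91 in endothelium (11), 2 to 305 over all barcodes (44), and 0 to 272 for the difference between gates (0). They were 4 to 604 for Anti-PD-1 (72), 1 to 385 for Anti-CTLA-4 (6), 929 to 2338 for preparation (1477), 1 to 92 for PancVAX against Isotype Control (22), 0 to 175 for the triple treatment against PancVAX (71), 1117 to 4643 for stroma against tumor (2248), and 2129 to 7449 for endothelium against stroma (4519). The endothelial gate held the fewest cells of the 5 (317), and 4 of 9 members passed its filter in the treatment tests.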

Other observations

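Interferon and monocyte genes were measured beside complement. Of the 10 interferon genes, Ifit1, which encodes an antiviral protein, was called higher with PancVAX in the tumor gate (log2 2.03, SE 0.25, edgeR adjusted p = 0.0211). That call was lost in 10 of 18 alternatives, among them each preparation alone and leaving out PancVAX, PancVAX + Anti-PD-1, Isotype Control, or Anti-PD-1 + Anti-CTLA-4, with values from 0.32 (no upper limits on cells) to 2.49. In the tumor gate 1 of 10 was called (0.0193% of all genes) and 4 had an unadjusted p below 0.05 (edgeR, 7.98%). Of the 10 genes, 0 were called (edgeR) with PancVAX in the macrophage, neutrophil, or stromal gates, beside 0.131%, 0.163%, and 0% of all genes. There 1, 1, and 4 had an unadjusted p below 0.05 (edgeR), against 14.7%, 6.6%, and 10.5% of all genes. In endothelium 0 of 9 tested were called (0.348% of all genes) and 1 had such a p (7.17%). Single treatments in macrophages are taken as 1 pool of tumors each, sequenced as 2 libraries. The next p-values thus rest on the spread between libraries and compare those pools, not the treatments. In macrophages, PancVAX against Isotype Control called Gbp2 (0.81, SE 0.09, edgeR adjusted p = 0.0004) and the chemokine Cxcl9 (0.8, SE 0.11, edgeR adjusted p = 0.00272) higher, and the monocyte gene Ly6c2 lower (-1.45, SE 0.18, edgeR adjusted p = 0.001). These were 2 of 10 interferon and 1 of 4 monocyte genes, beside 0.205% of all genes called. PancVAX + Anti-PD-1 + Anti-CTLA-4 against PancVAX called Ifit3 (-1.02, SE 0.16, edgeR adjusted p = 0.0051) and Oasl2 (-0.73, SE 0.13, edgeR adjusted p = 0.00927) lower, 2 of 10 beside 0.66% of all genes. Without the upper limits on cells Gbp2 (0.39) and Cxcl9 (0.58) were not called. With no preparation covariate Cxcl9 (0.8), Ly6c2 (-1.49), Ifit3 (-1), and Oasl2 (-0.73) were not called, nor was Oasl2 with DESeq2 (-0.72). Over all barcodes of the whole-tumor libraries, Ly6c2 was called higher with PancVAX (1.77, SE 0.08, edgeR adjusted p = 0.00118), among 0.256% of all genes called. In the macrophage gate it gave -0.43 (SE 0.24, edgeR adjusted p = 0.461). The sum covers all cell types, in which more cells of a type and more RNA per cell cannot be told apart. Whole-tumor libraries held 794 to 1452 T cell gate cells with PancVAX and 520 to 592 without. Which cells carried this Ly6c2 was not tested, so it is not read as monocytes.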
